A study of Homo sapiens with 9 samples.

Results

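The core spliceosome proteins described here are 44 genes, chosen by name, that encode the proteins of the U1, U2, U5 and U4/U6 small nuclear ribonucleoproteins (snRNPs) and the factors that join them on a pre-mRNA. They are 44 of the 61853 genes listed in the table, and all 44 passed the expression filter and were tested among 19591 genes. The line was 293T, derived from human embryonic kidney and expressing the SV40 large T antigen, with the genotype given as WT. One group of 3 libraries came from cells given a scramble shRNA (Scramble), a hairpin without an intended target. The other group of 3 came from cells given DIS3-sh1, an shRNA against DIS3, the catalytic nuclease of the RNA exosome. The series sets out to measure what DIS3 knockdown does to circular RNAs, and the values here are RNA counts of whole genes. Protein levels are not among them. The libraries held total RNA depleted of ribosomal RNA. The samples are described as biological replicates without naming separate cultures, so p-values measure the spread between these libraries. A second shRNA, DIS3-sh2, is not analysed here, so the effect of this hairpin and of DIS3 loss cannot be told apart.

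The spliceosome removes introns in an ordered cycle. U1 snRNP pairs with the 5′ splice site, U2AF and U2 snRNP recognise the polypyrimidine tract and branch point, and the U4/U6.U5 tri-snRNP then joins and is rearranged by RNA helicases into the catalytic enzyme. A ring of Sm proteins surrounds each of the U1, U2, U4 and U5 RNAs, and PRP19-related proteins hold the activated core together.

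The 3 Scramble libraries held 20722775 to 23532148 counts and the 3 DIS3-sh1 libraries 19800892 to 21100677. DIS3 was at 175.8, 186.1 and 177.1 CPM (counts scaled to a common library size) in Scramble and at 26.6, 27.83 and 27.89 CPM with DIS3-sh1, which is 15.3% of Scramble. Small structural RNAs took 5.10% to 5.32% of a Scramble library and 8.44% to 9.53% of a DIS3-sh1 library, and mitochondrial genes 2.20% to 2.23% and 2.78% to 3.47%. A fit without small structural, mitochondrial and ribosomal genes called the same 39 members lower and 3 higher. DIS3-sh1 replicate 1 stood apart from its group, with a chi-square per degree of freedom of 5.24 and 5.30 against replicates 2 and 3, which differed from each other by 1.61. All 9 markers listed for 293T cells reached 1 CPM in every library, and 17 of 18 markers of blood, liver and fibroblast cells stayed under 1 CPM in both group means. The 293T markers were themselves called, 5 lower and 4 higher, with KRT8 going from 4.65 to 32.55 CPM (log2 fold change 2.81) and SOX2 from 12.85 to 5.15 CPM (log2 fold change -1.32), and their part in the results was not tested. Among the other markers COL1A1 was the exception, at 14.7 CPM with Scramble and 25.0 CPM with DIS3-sh1. CPM is a share of a library, so fewer cells of a kind and less RNA per cell cannot be told apart.

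Most core spliceosome genes had lower transcript levels in DIS3-sh1. Of the 44 genes, 39 fell, 3 rose and 2 did not pass the test (edgeR quasi-likelihood test with Benjamini-Hochberg adjustment over all genes tested, adjusted p under 0.05). Over all 19591 genes 32.6% were called lower and 34.5% higher, 67% in either direction, so a call was common in this comparison. Among the 6578 coding genes expressed at least as highly as the lowest of the 44, with a mean of 31.2 CPM, 54.9% were called lower and 28% higher. The median log2 fold change was -0.40 for the 44 genes, against 0.02 for all genes tested and -0.16 for those 6578 coding genes. Of the falls, 17 reached 1.5-fold and 22 were smaller, where 12.7% of all genes tested fell by 1.5-fold or more.

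The 44 genes together measured 7282, 7254 and 7226 CPM with Scramble and 5509, 5504 and 5522 CPM with DIS3-sh1. Their sum was thus lower in every DIS3-sh1 library, with means of 7254 ± 28 and 5512 ± 9.68 CPM (SD, n = 3 each). For 41 genes the groups did not overlap, 38 of them lower in DIS3-sh1, while 34.2% of all genes tested were lower without overlap and 69.8% did not overlap in either direction. Each value rests on at least 546 counts in a library, and the coefficient of variation within a group had a median of 2.81% and a highest value of 9.51%.

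**Figure D1:**
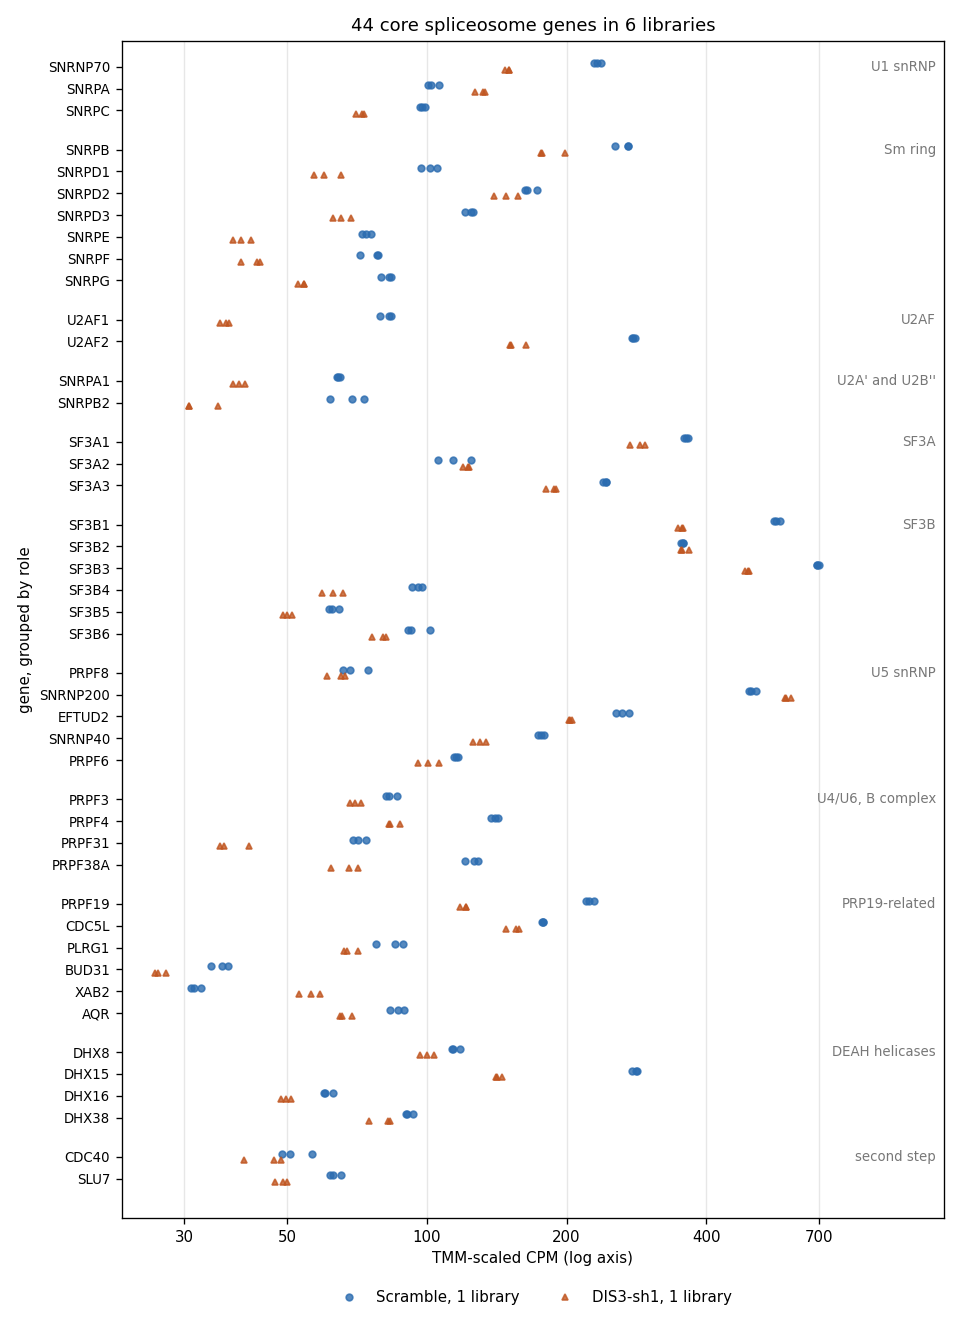
TMM-scaled CPM of each core spliceosome gene in each library, on a log axis, with genes ordered by role and points coloured by group. The points of the 2 groups separate for 41 of 44 genes, and they overlap for SF3A2, SF3B2 and PRPF8.

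**Figure D2:**
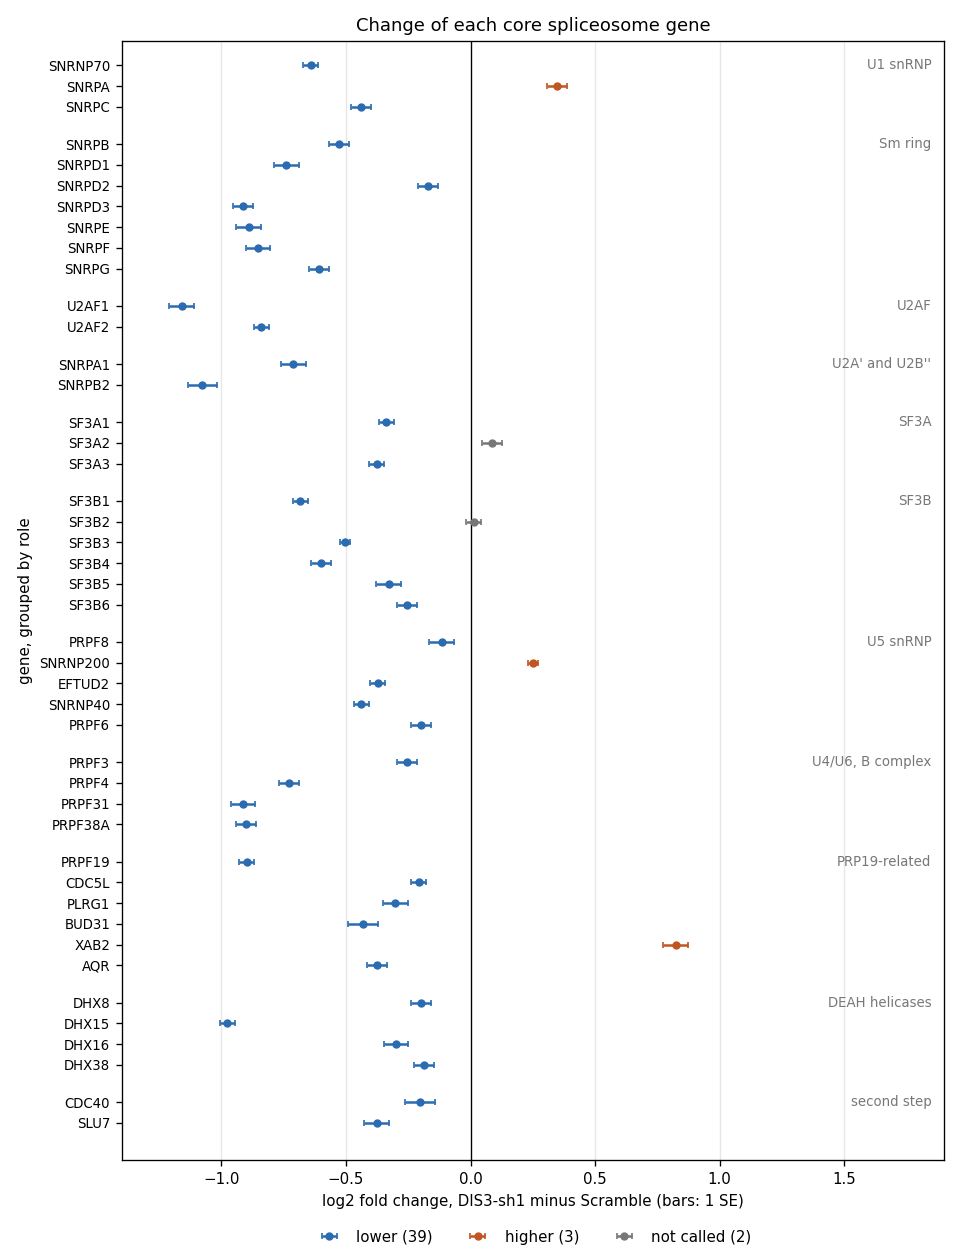
Log2 fold change (DIS3-sh1 minus Scramble) of each of the 44 genes with its standard error, by role. Values run from -1.16 for U2AF1 to 0.82 for XAB2, and 39 genes were called lower.

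**Figure D3:**
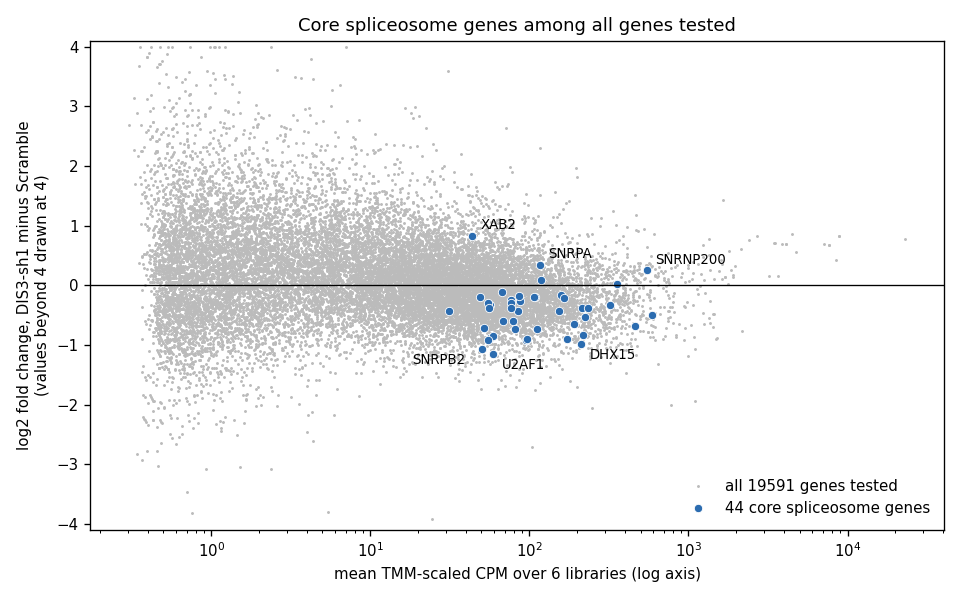
Log2 fold change against mean CPM for all genes tested, on a log axis for CPM, with the 44 genes marked. The 44 genes have means of 31.2 to 592.5 CPM and most lie below 0.

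Since most members moved together, their promoters were searched for short motifs. A promoter was listed for 41 of the 44 genes in the RefSeq table for GRCh38.p14, as the 300 bases from 250 before to 50 after the start. Only the first start listed for a gene was used, and it need not be the main one. The SNRPE window (chr1:203861597-203861896, plus strand), which holds the ETS letters searched below, lies almost wholly after the gene's start at 203861603 in GENCODE 29. The windows of SLU7, SF3B2, SF3A3, U2AF2 and SF3B4 hold these letters too and lie wholly within the gene's span there. That of SF3B2, for example, is chr11:66052114-66052413, where the gene starts at 66050729 (plus strand). The ETS motif CCGGAAGT, searched on both strands, was in the promoters of 15 of the 41 genes (36.6%). It was in 4.44% of all 27303 promoters of that length, in 8.36% of those of genes tested and in 10.7% of those of coding genes expressed as highly. Within the 41 it was in 13 of 36 genes that fell and in 2 of the 5 others, SF3A2 and SF3B2. Among all coding genes tested, the ETS letters were in 11.5% of promoters of genes called lower. The shares were 5.16% for genes called higher and 8.71% for those not called. These sets were not matched for expression, and a link of the letters to the changes was not tested. The NRF1 motif (GCGC and TGCGC with any 1 base between them) and the YY1 motif ATGGCGG were each in 14.6% of members, against 15% and 13.3% of the coding genes expressed as highly. A match describes letters only and shows no binding.

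The promoters of 5 members are shown, 5′ to 3′ on the strand of the gene, with matches to the ETS, YY1 and NRF1 motifs in capitals. SNRPB (chr20:2470740-2471039, minus strand) and SF3A1 (chr22:30356845-30357144, minus strand) hold the ETS letters and fell. SF3A2 (chr19:2236574-2236873, plus strand) holds them and was not called. U2AF1 (chr21:43107521-43107820, minus strand) and XAB2 (chr19:7629496-7629795, minus strand) are the lowest and highest of the 44 log2 fold changes, and neither window holds any of the 3 motifs.
SNRPB: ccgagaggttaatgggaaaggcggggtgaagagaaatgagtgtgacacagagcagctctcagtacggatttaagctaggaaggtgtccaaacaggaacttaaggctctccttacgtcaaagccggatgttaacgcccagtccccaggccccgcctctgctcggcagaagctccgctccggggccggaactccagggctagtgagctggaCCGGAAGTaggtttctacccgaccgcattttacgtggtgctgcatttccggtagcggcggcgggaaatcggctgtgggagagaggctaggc
SF3A1: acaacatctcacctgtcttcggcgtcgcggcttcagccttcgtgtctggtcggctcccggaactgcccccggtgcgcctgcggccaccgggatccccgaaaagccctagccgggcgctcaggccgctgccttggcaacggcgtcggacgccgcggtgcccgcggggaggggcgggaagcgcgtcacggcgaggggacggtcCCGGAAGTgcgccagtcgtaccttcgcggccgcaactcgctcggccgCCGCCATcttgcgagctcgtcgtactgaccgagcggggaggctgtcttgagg
SF3A2: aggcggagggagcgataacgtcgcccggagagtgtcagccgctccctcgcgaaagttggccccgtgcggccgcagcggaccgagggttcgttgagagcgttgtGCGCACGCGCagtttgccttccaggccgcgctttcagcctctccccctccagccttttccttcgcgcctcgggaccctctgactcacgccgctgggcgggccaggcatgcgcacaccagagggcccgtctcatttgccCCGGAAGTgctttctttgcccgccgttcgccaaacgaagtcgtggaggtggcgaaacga
U2AF1: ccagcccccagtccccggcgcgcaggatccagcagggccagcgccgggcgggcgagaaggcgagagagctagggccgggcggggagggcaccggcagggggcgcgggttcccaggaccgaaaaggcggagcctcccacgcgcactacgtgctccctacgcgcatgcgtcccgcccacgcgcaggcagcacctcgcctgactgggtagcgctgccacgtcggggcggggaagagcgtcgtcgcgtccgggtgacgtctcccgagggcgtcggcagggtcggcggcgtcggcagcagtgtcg
XAB2: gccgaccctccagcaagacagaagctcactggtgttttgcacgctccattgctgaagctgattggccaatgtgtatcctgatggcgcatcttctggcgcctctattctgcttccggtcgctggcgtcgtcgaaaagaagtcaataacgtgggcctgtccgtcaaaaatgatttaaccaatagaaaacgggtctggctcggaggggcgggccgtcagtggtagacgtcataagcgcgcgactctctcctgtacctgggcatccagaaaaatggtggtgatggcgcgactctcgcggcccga

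Transcripts of U1 snRNP proteins moved in both directions. SNRNP70, the U1-70K protein that binds a stem of U1 RNA, measured 232.2, 229.6 and 237.2 CPM with Scramble and 147.6, 150.5 and 149.9 CPM with DIS3-sh1. SNRPA, which binds another U1 stem, measured 100.6, 101.8 and 106.1 CPM with Scramble and 132.2, 133.1 and 126.9 CPM with DIS3-sh1. Neither gene's groups overlapped: SNRNP70 fell with a log2 fold change of -0.64 ± 0.03 (SE, edgeR adjusted p = 3.38e-18) and SNRPA rose by 0.35 ± 0.04 (edgeR adjusted p = 8.56e-10). SNRPC, a U1 protein at the 5′ splice site, fell by 0.44 on the log2 scale. The ratio of SNRPA to SNRNP70 went from 0.441 ± 0.0073 to 0.876 ± 0.0257 (SD, n = 3 each). This ratio and those given further on were chosen after the values were seen and carry no test. An exon of SNRPA shares 89 bases with ACTMAP on the opposite strand (44.9 CPM, log2 fold change 0.43), and use of strand in counting is not given in the sources used here, so the part of such reads in SNRPA was not tested.

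All 7 genes of the Sm ring fell, with a median log2 fold change of -0.74. SNRPD3 (SmD3) had the lowest value of the ring and SNRPD2 (SmD2) the highest. SNRPD3 was at 120.8, 125.8 and 124.4 CPM with Scramble and at 62.66, 65.29 and 68.73 CPM with DIS3-sh1, a log2 fold change of -0.92 ± 0.04 (SE, edgeR adjusted p = 1.04e-18). SNRPD2 was at 163.0, 172.3 and 164.7 CPM with Scramble and at 157.0, 139.3 and 148.0 CPM with DIS3-sh1, a log2 fold change of -0.17 ± 0.04 (SE, edgeR adjusted p = 0.000186). Both genes were lower in every DIS3-sh1 library, though the SNRPD2 groups came within a few CPM of each other. SmD2 and SmD3 occupy 1 place each in the same ring, while the ratio of their transcripts went from 1.35 ± 0.0229 to 2.26 ± 0.209 (SD, n = 3 each). SNRPE, SNRPF and SNRPG, which form a subcomplex during ring assembly, had log2 fold changes of -0.89, -0.85 and -0.61. SNRPD1 fell by 0.74 and SNRPB, which encodes SmB and SmB′, by 0.53 on that scale.

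The genes of both U2AF subunits fell, and U2AF1 had the largest fall of the 44 genes. U2AF1 encodes the small subunit, which reads the AG at the 3′ splice site, and spans 43092956 to 43107587 of chromosome 21 in GRCh38 (minus strand). It measured 83.82, 82.65 and 79.35 CPM with Scramble and 35.78, 37.41 and 36.89 CPM with DIS3-sh1. All DIS3-sh1 libraries were well below all Scramble libraries, at 44.8% of the Scramble mean, a log2 fold change of -1.16 ± 0.05 (SE, edgeR adjusted p = 1.1e-19). U2AF2, the large subunit that binds the polypyrimidine tract, measured 277.0, 277.9 and 280.7 CPM with Scramble and 163.4, 151.9 and 151.2 CPM with DIS3-sh1. Its log2 fold change was -0.84 ± 0.03 (SE, edgeR adjusted p = 1.11e-20), again with no overlap.

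Transcripts of the U2-specific proteins SNRPA1 and SNRPB2, which bind U2 RNA as a pair, also fell. SNRPB2 measured 73.27, 68.88 and 61.74 CPM with Scramble and 30.69, 35.46 and 30.75 CPM with DIS3-sh1. The groups were far apart and the log2 fold change was -1.08 ± 0.06 (SE, edgeR adjusted p = 1.45e-15). SNRPA1 went from 64.43 ± 0.532 to 39.36 ± 1.11 CPM (SD, n = 3 each), and its log2 fold change was -0.71.

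The SF3A and SF3B complexes hold U2 snRNP at the branch point. Of their 9 genes among the 44, 7 fell while SF3A2 and SF3B2 did not pass the test. PHF5A, a further SF3B subunit, was listed with other U2 factors and fell by 0.53 on the log2 scale. In SF3A, SF3A2 was at 113.8, 105.4 and 124.5 CPM with Scramble and at 123.1, 119.3 and 122.8 CPM with DIS3-sh1. The groups overlapped, with a log2 fold change of 0.09 ± 0.04 (SE, edgeR adjusted p = 0.0747). It was called higher without Scramble replicate 3 (edgeR adjusted p = 0.00627), with upper-quartile scaling (edgeR adjusted p = 0.00112) and with a replicate block (edgeR adjusted p = 0.0378). SF3A2 shares 398 exon bases with PLEKHJ1 on the opposite strand, which rose (29.1 CPM, log2 fold change 0.52), and the part of such reads in SF3A2 was not tested. The other subunits SF3A1 and SF3A3 had log2 fold changes of -0.34 and -0.38, and the ratio of SF3A2 to SF3A3 went from 0.474 ± 0.0356 to 0.654 ± 0.0241 (SD, n = 3 each).

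In SF3B, SF3B1, the scaffold around the branch site, fell the most. SF3B1 measured 576.4, 566.4 and 559.8 CPM with Scramble and 347.7, 355.3 and 357.0 CPM with DIS3-sh1, a log2 fold change of -0.68 ± 0.03 (SE, edgeR adjusted p = 5.78e-21). SF3B2, which contacts the pre-mRNA near the branch site, measured 355.8, 355.6 and 352.0 CPM with Scramble and 352.3, 354.0 and 366.9 CPM with DIS3-sh1. The SF3B2 groups overlapped, with a log2 fold change of 0.01 ± 0.03 (SE, edgeR adjusted p = 0.671), and upper-quartile scaling called it higher by 0.09 (edgeR adjusted p = 0.0022). In Scramble SF3B2 stood at 0.625 ± 0.00639 of the SF3B1 value and in DIS3-sh1 at 1.01 ± 0.0158 (SD, n = 3 each). SF3B3 fell from 694.9 ± 4.44 to 490.2 ± 5.14 CPM (SD, n = 3 each). The small subunits SF3B4, SF3B5 and SF3B6 had log2 fold changes of -0.60, -0.33 and -0.26, all called lower.

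Of the 5 genes for U5 snRNP proteins among the 44, 4 fell and 1 rose, with a median log2 fold change of -0.20. SNRNP200 (Brr2), the helicase that unwinds U4 from U6, rose. It measured 513.0, 499.6 and 495.2 CPM with Scramble and 607.7, 593.7 and 591.7 CPM with DIS3-sh1, all above any Scramble library, with a log2 fold change of 0.25 ± 0.02 (SE, edgeR adjusted p = 1.72e-10). SNRNP40, a WD-repeat protein of U5, had the lowest log2 fold change of the group. It was at 173.6, 178.8 and 176.5 CPM with Scramble and at 130.4, 125.9 and 133.8 CPM with DIS3-sh1 (log2 fold change -0.44 ± 0.03 SE, edgeR adjusted p = 4.77e-13). EFTUD2, the GTPase that works with SNRNP200, fell by 0.37 on the log2 scale, and the ratio of SNRNP200 to EFTUD2 went from 1.9 ± 0.0316 to 2.93 ± 0.0209 (SD, n = 3 each). PRPF6, a bridge between U5 and U4/U6, fell by 0.20 on that scale.

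PRPF8, the scaffold of the catalytic center, was called lower by a small margin. It measured 65.77, 74.64 and 68.29 CPM with Scramble and 61.01, 65.14 and 66.44 CPM with DIS3-sh1. The groups overlapped, with a log2 fold change of -0.12 ± 0.05 (SE, edgeR adjusted p = 0.0399). Leaving out Scramble replicate 2 ended the call (edgeR adjusted p = 0.273), as did leaving out DIS3-sh1 replicate 1 (edgeR adjusted p = 0.171) or replicate 2 (edgeR adjusted p = 0.0542). It also ended with upper-quartile scaling (edgeR adjusted p = 0.541), with DESeq2 (adjusted p = 0.0525) and with limma-voom (adjusted p = 0.0535).

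All 4 genes of U4/U6 and the B complex among the 44 fell. PRPF31, which bridges U4/U6 and U5, measured 69.39, 71.12 and 73.72 CPM with Scramble and 41.33, 35.81 and 36.46 CPM with DIS3-sh1, a log2 fold change of -0.91 ± 0.05 (SE, edgeR adjusted p = 7.89e-16). PRPF3, a U4/U6 protein, measured 82.92, 86.08 and 81.65 CPM with Scramble and 68.21, 71.92 and 70.11 CPM with DIS3-sh1, a log2 fold change of -0.25 ± 0.04 (SE, edgeR adjusted p = 4.25e-06). Both were lower in all DIS3-sh1 libraries, and PRPF3 fell the least of the 4. PRPF4, the partner of PRPF3 in U4/U6, went from 140.0 ± 2.47 to 84.58 ± 2.63 CPM, and PRPF38A, a protein of the B complex, from 125.3 ± 4.19 to 67.06 ± 4.52 CPM (SD, n = 3 each).

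The PRP19 complex and related proteins held the largest rise of the 44 genes. XAB2 (SYF1), a scaffold of tetratricopeptide-like repeats, spans 7619525 to 7629565 of chromosome 19 in GRCh38 (minus strand). It measured 32.61, 31.41 and 31.02 CPM with Scramble and 58.94, 56.36 and 52.97 CPM with DIS3-sh1. All DIS3-sh1 libraries were far above Scramble, at 177% of its mean, a log2 fold change of 0.82 ± 0.05 (SE, edgeR adjusted p = 2.16e-14). PRPF19, the ubiquitin ligase that names the complex, measured 220.2, 223.1 and 229.6 CPM with Scramble and 121.5, 118.0 and 121.2 CPM with DIS3-sh1. Its groups were apart in the other direction, with a log2 fold change of -0.90 ± 0.03 (SE, edgeR adjusted p = 2.7e-21). The ratio of XAB2 to PRPF19 went from 0.141 ± 0.00651 to 0.467 ± 0.026 (SD, n = 3 each). The others fell by less: CDC5L and PLRG1, core partners of PRPF19, by 0.21 and 0.30 on the log2 scale, BUD31, a small protein near the catalytic RNA, by 0.43, and the helicase AQR by 0.38.

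All 4 DEAH helicase genes among the 44 fell, DHX15 by the most. DHX15, which takes apart spliceosomes after the reaction, measured 283.6, 282.9 and 276.0 CPM with Scramble and 141.2, 141.9 and 145.2 CPM with DIS3-sh1. It was at 50.8% of Scramble with no overlap, a log2 fold change of -0.98 ± 0.03 (SE, edgeR adjusted p = 5.72e-23). DHX38 (PRP16), which acts between the steps of splicing, measured 93.43, 90.47 and 90.01 CPM with Scramble and 83.32, 75.01 and 82.53 CPM with DIS3-sh1, a log2 fold change of -0.19 ± 0.04 (SE, edgeR adjusted p = 0.00037). DHX16 (PRP2), which starts the first step, and DHX8 (PRP22), which releases the mRNA, had log2 fold changes of -0.30 and -0.20.

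The genes of the second-step factors SLU7 and CDC40 (PRP17) fell as well. SLU7, which helps to position the 3′ splice site, measured 61.68, 65.16 and 62.62 CPM with Scramble and 47.03, 49.92 and 48.93 CPM with DIS3-sh1, a log2 fold change of -0.38 ± 0.05 (SE, edgeR adjusted p = 3.52e-08). CDC40 measured 50.78, 56.63 and 48.72 CPM with Scramble and 40.34, 46.88 and 48.45 CPM with DIS3-sh1. Its groups came within 1 CPM, with a log2 fold change of -0.20 ± 0.06 (SE, edgeR adjusted p = 0.00546). The CDC40 call was lost without Scramble replicate 2 (edgeR adjusted p = 0.0596) and when DIS3-sh1 replicate 1 was left out (edgeR adjusted p = 0.0531), and with upper-quartile scaling (edgeR adjusted p = 0.0831).

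Levels were compared between genes per kilobase of the principal transcript. In Scramble, SNRPB was highest at 230 CPM per kb, followed by SNRPD2 at 185, U2AF2 at 164 and SNRNP70 at 148 CPM per kb. The lowest levels were those of AQR at 8.91, PRPF8 at 9.34 and XAB2 at 11.9 CPM per kb. PRPF8 thus lay far below the U5 genes SNRNP200 at 70.1 and EFTUD2 at 58.0 CPM per kb. The part of read counting in such differences was not tested. With the length of all annotated exons in place of the transcript, SNRPB and SNRPD2 stayed the highest and PRPF8, AQR and XAB2 the lowest. XAB2, which rose the most, was among the lowest genes in Scramble and reached 21.0 CPM per kb in DIS3-sh1. Across the 44 genes the log2 fold change had a Spearman rho of 0.39 with the number of exons, 0.31 with the transcript's GC content and 0.10 with mean CPM. Over 13591 coding genes tested these were 0.13, 0.17 and -0.32. Genes share libraries and are not replicates, so these values are descriptions.

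Exons of 12 members share bases with another gene at 1 CPM or more, of which SNRPA rose, SF3A2 was not called and the other 10 fell. Only genes in GENCODE 29, 58254 of the 61853 listed, could be checked, so further overlaps may be missed. SNRPB shares 256 bases with a gene on the same strand that fell (38.7 CPM, log2 fold change -0.46). On the opposite strand BUD31 shares 919 bases with PTCD1 (24.7 CPM, log2 fold change -0.12) and 189 with PDAP1 (92.0 CPM, log2 fold change -0.35). SNRPD3 shares 321 bases with GUCD1, also on the opposite strand (75.8 CPM, log2 fold change -0.15). The part of such reads in these members was not tested.

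Processed pseudogenes, which are copies of an mRNA inserted elsewhere, can share reads with their parent genes. By name, 67 processed pseudogenes of the 44 genes were found, and 28 of these pseudogenes had no count in any library. SNRPA1P1, a copy of SNRPA1, went from 23.7 ± 2.19 to 11.5 ± 0.777 CPM (SD, n = 3 each), and its log2 fold change was -1.05. The SNRPE copies SNRPEP4 and SNRPEP2 had log2 fold changes of -1.16 and -1.41, and SNRPGP10, a copy of SNRPG, of -0.81. All 4 were lower in the same direction as their parents, and since many values in the table are fractions, reads of copy and parent cannot be separated here. U2AF1L4, a paralog of U2AF1, was at 3.20 CPM with Scramble and 3.71 CPM with DIS3-sh1 and was not called (edgeR adjusted p = 0.252). Divergent transcripts that start beside a member were listed too: SNRPA1-DT rose from 1.21 to 2.58 CPM (edgeR adjusted p = 0.000102) while SNRPA1 fell. PRPF19-DT went from 0.504 to 1.02 CPM (edgeR adjusted p = 0.0242), a call lost without Scramble replicate 3 (edgeR adjusted p = 0.127), DIS3-sh1 replicate 1 (edgeR adjusted p = 0.176) or DIS3-sh1 replicate 3 (edgeR adjusted p = 0.0676). SNRPN, which encodes a close relative of SmB, was listed at 0 in every library. How reads shared between genes were counted is not given, so this 0 need not mean that its RNA was absent.

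**Figure D4:**
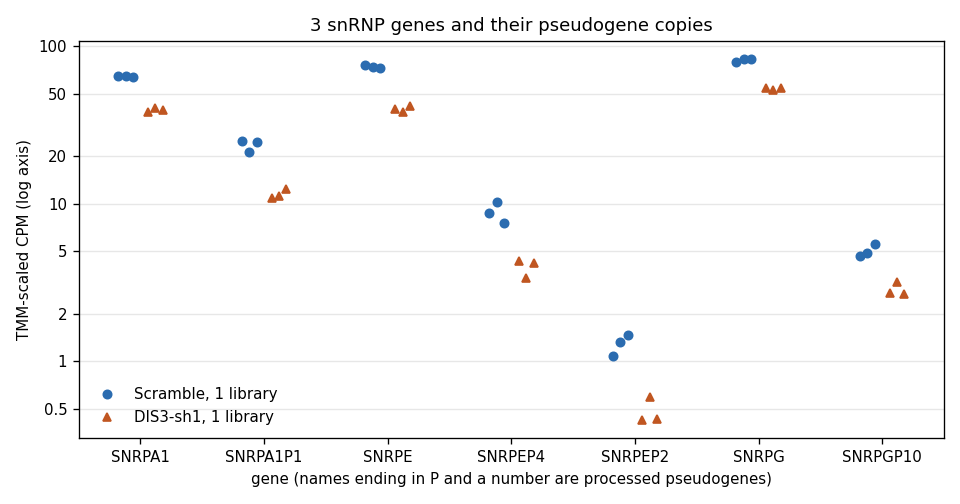
TMM-scaled CPM by library, on a log axis, of SNRPA1, SNRPE and SNRPG and of the 4 processed pseudogenes that reached 1 CPM, with 1 point per library. The expressed pseudogenes of SNRPA1, SNRPE and SNRPG lie lower in DIS3-sh1, as their parents do.

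Other genes of splicing were followed in 8 lists, again chosen by function. Of 102 genes, all tested, 81 fell, 8 rose and 13 did not pass the test, with a median log2 fold change of -0.43 against 0.02 for all genes. Beside these counts stand the 32.6% lower and 34.5% higher over all genes tested, and the 54.9% lower and 28% higher over coding genes expressed as highly as the 44. All 7 genes in the list of further U1 factors fell, a list that also holds SNRNP27, a tri-snRNP protein. Among them LUC7L2, which helps U1 to choose 5′ splice sites, went from 140.1 ± 1.94 to 74.86 ± 0.848 CPM (SD, n = 3 each). Of 11 genes in the list of further U2 factors 9 fell, including SF1, the branch point binding protein, by 0.60 on the log2 scale. This list also holds DHX9, an RNA helicase not specific to U2, which fell by 0.90 on the log2 scale. Of 15 further tri-snRNP and B complex factors 14 fell, WBP11 by 0.99 on that scale, and WBP4 rose by 0.24. The LSm ring of U6 with LSM1 had 6 of 8 genes lower, LSM4 among them with a log2 fold change of -0.55.

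In the exon junction complex and its partners, 11 of 12 genes fell. EIF4A3, the helicase that anchors the complex on the mRNA, went from 190.6 ± 6.24 to 95.11 ± 2.90 CPM (SD, n = 3 each), while CASC3, another of its core proteins, rose from 190.0 ± 4.98 to 236.8 ± 5.61 CPM. Further PRP19-related and catalytic step factors were more mixed, with 13 of 21 lower. ISY1 and DDX41 were higher by 0.46 and 0.23 on the log2 scale. Among coding genes expressed as highly as the 44, 54.9% were called lower and 28% higher. Genes of the minor spliceosome, which removes a rare class of introns, had the median closest to 0 of the 8 lists, at -0.10. Of its 10 genes 5 fell and 3 rose. Those that rose were PDCD7 by 0.54, SNRNP35 by 0.37 and ZCRB1 by 0.27 on the log2 scale. The shares were near those of the coding genes expressed as highly as the 44. Several of the 10 lay below the 31.2 CPM that sets this comparison, such as ZRSR2 at 9.04 CPM in Scramble. Over all coding genes tested 38.7% were called lower and 36.2% higher.

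Genes of factors that build snRNPs gave the lowest value of these lists. Of 18 genes 16 fell, 1 rose and 1 was not called. WDR77, part of the methylosome that methylates Sm proteins, went from 131.8 ± 3.98 to 49.69 ± 2.28 CPM (SD, n = 3 each), and its log2 fold change was -1.41 ± 0.04 (SE, edgeR adjusted p = 5.72e-23). GEMIN8, a member of the SMN complex that loads the Sm ring, rose by 0.70 ± 0.10 on that scale (SE, edgeR adjusted p = 1.49e-07).

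**Figure D5:**
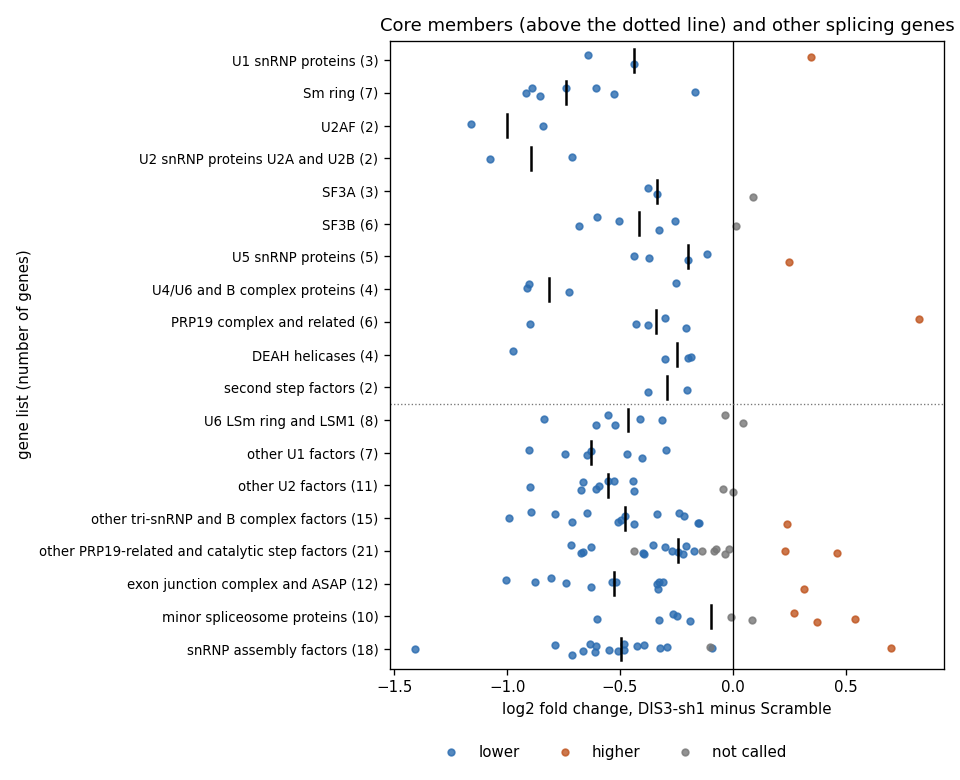
Log2 fold change (DIS3-sh1 minus Scramble) of each gene by list, for the roles of the 44 genes and the 8 lists of other splicing genes, with a bar at each list's median and colours for the call. The list medians run from -1 for U2AF to -0.10 for the minor spliceosome.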

How the data were processed

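Total RNA of 293T cells was depleted of ribosomal RNA and sequenced with a stranded kit, per the labels' protocols. The authors deposited expected counts per gene, which need not be whole. The submitters' processing notes name featureCounts 1.5.1, HISAT2 2.1.0, Bowtie2 2.3.5, SAMtools and hg38. Their roles, the annotation and the use of strand are not given in the sources used here, so values of overlapping genes and near-identical copies are uncertain. Between 53.24% and 56.03% of values above 0 in a library were whole.

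Libraries were grouped by their labels. Names of 3 columns matched no label, so these were not used, and the fit planned for 9 libraries was made on 6. Counts were rounded, which moved no total by more than 0.0014%. edgeR 4.0.16 (R 4.3.3) was run with TMM scaling, filterByExpr by group and its robust two-sided quasi-likelihood test, and p-values were adjusted by Benjamini and Hochberg's method over 19591 genes. SE was derived from the log2 fold change and the square root of its F statistic. CPM values are TMM-scaled. Gene positions and lengths came from GENCODE 29 and promoters from RefSeq.

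Members and lists were chosen with earlier results of these data known. The rule named DIS3, all 44 members, the values by library of the highest and lowest member of each role and of members not called or against the majority, and in other lists the 3 genes with the smallest p and up to 5 against the majority. Further genes were picked for ratios after their values were seen. Alternatives were RLE and upper-quartile scaling, no filter, DESeq2 1.42.0, limma-voom 3.58.1, a replicate block, a fit that omits mitochondrial, ribosomal and small structural genes, and leaving out each library.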

Additional observations from a re-analysis of the deposited data

How the results depend on the processing

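In all 13 alternatives 40 of the 44 genes had the same direction and call, 37 lower and 3 higher. Upper-quartile scaling moved the most: 5 members were higher (SF3A2 and SF3B2 added, adjusted p = 0.00112 and 0.0022) and 37 lower (PRPF8 and CDC40 lost), with medians of -0.32 for members, -0.35 for the other listed genes and 0.10 for all genes. PRPF8 was also not called by DESeq2 (adjusted p = 0.0525) or limma-voom (adjusted p = 0.0535), and SF3A2 was called higher without Scramble replicate 3 (edgeR adjusted p = 0.00627). The median of all genes was 0.01 with RLE scaling, no filter and DESeq2, and 0.02 with limma-voom and without small structural, ribosomal and mitochondrial genes. Leaving out 1 library gave 37 to 39 members lower and 3 to 4 higher, medians of -0.42 to -0.40 for members, -0.45 to -0.41 for the other listed genes and 0.01 to 0.02 for all genes. SF3B2 ranged from 0 to 0.03 and changed sign without DIS3-sh1 replicate 3 (log2 fold change rounding to 0, edgeR adjusted p = 0.91). PRPF19-DT was not called by DESeq2 (adjusted p = 0.0695). Of the 102 other listed genes, 17 changed call or direction in at least 1 alternative. The 30 of them that the text may name kept both, but they were picked mostly for small p. Same-numbered libraries deviated together little (r = 0.06, 0.02 and 0.00), so the numbers were not taken as pairs. With the replicate block 39 members were lower and 4 higher, SF3A2 being added (adjusted p = 0.0378). A fit on only the groups compared was not run, since no other group is in the fit. The causes of these changes were not tested. With 3 libraries a group and 1 shRNA, small changes such as those of PRPF8, CDC40 and SF3A2 are at the limit of what the design resolves.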
